A study of Homo sapiens with 2 samples.

Results

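Long non-coding RNA (lncRNA) genes that start or end away from protein-coding genes carried 1860 of the 54389 Flag-ETV4 peaks in A549 cells, which is 3.42% of the list (Wilson 95% interval 3.27% to 3.58%). To be taken, a peak needed its summit 1 kb or less from either end of an lncRNA gene in RefSeq, and over 5 kb away from the ends of all protein-coding genes. The 1860 peaks lay on 23 chromosomes, covered 1.28 Mb and reached 1792 of the 18303 lncRNA genes in the gene table. Of these genes, 1630 had 1 such peak, 153 had 2 and 9 had 3. A total of 99 peaks served 2 or more lncRNA genes at the same time, so peaks and genes were counted separately. The measured fold was not used to choose them.

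A549 is an established human lung adenocarcinoma line. The cells had ETV4 knocked down with a short hairpin RNA and received Flag-tagged ETV4 by transfection, and chromatin bound by the tagged protein was recovered with a Flag antibody and sequenced beside input DNA. There was 1 immunoprecipitate and 1 input, both labelled A549, with no replicate and no untagged control, so no difference below has a replicate check and none was tested between conditions. The Flag antibody is given differently in the sample labels and in the study's methods, and the peaks describe the re-introduced tagged protein rather than the cells' own ETV4. RNA levels of the lncRNA genes were not part of these data.

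ETV4 belongs to the PEA3 group of ETS transcription factors, which bind DNA through a purine-rich GGAA core and act downstream of receptor tyrosine kinase and ERK signalling. lncRNAs are mostly made by RNA polymerase II from promoters of their own, are often spliced and do not encode a long protein. Some act in the nucleus as scaffolds or at the neighbouring locus, and others are precursors of microRNAs or small nucleolar RNAs.

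The promoter sequences of 7 of these genes show the range of what lay under the summits. They were chosen after their values had been seen. LOC105376156, MIATNB and LINC01152 had some of the highest folds at a 5′ end, NORAD is a well known lncRNA with an ETS match beside its summit, LUCAT1 had a modest peak with a match, and MIR31HG and MALAT1 had no match. Each run holds 300 bases of RefSeq GRCh38.p14, from 250 bases before the transcription start to 50 after it, printed 5′ to 3′ in the direction of the gene. Capitals mark the ETS letters AGGAAG or CCGGAAG on either strand, so that CTTCCT and CTTCCGG are the same letters read from the other strand. The windows are chr9:95426781-95427080 (minus strand) for LOC105376156, chr22:26672593-26672892 (plus) for MIATNB, chr17:72030404-72030703 (plus) for LINC01152, chr20:36050911-36051210 (minus) for NORAD, chr5:91314353-91314652 (minus) for LUCAT1, chr9:21559749-21560048 (minus) for MIR31HG and chr11:65497488-65497787 (plus) for MALAT1.
LOC105376156: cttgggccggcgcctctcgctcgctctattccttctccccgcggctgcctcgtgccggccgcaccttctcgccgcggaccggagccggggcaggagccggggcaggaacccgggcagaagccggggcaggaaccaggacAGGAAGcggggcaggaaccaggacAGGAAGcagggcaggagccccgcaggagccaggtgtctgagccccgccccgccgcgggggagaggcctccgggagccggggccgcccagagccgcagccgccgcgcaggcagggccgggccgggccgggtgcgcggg
MIATNB: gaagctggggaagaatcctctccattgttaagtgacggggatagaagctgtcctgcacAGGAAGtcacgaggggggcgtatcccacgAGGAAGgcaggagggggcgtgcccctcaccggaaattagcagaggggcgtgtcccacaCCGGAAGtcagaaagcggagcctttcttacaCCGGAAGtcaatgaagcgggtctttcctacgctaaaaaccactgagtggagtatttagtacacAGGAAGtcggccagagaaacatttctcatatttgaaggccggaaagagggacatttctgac
LINC01152: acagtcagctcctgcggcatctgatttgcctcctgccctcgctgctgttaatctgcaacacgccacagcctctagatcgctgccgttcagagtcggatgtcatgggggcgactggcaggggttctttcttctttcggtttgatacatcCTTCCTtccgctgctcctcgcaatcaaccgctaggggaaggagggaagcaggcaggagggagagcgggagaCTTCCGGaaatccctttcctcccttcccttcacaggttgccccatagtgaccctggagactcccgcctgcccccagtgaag
NORAD: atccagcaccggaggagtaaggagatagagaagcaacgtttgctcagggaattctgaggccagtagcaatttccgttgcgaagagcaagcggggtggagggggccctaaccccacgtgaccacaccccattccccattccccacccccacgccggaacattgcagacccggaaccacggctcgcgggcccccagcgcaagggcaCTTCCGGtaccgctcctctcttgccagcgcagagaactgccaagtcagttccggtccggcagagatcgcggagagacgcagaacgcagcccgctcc
LUCAT1: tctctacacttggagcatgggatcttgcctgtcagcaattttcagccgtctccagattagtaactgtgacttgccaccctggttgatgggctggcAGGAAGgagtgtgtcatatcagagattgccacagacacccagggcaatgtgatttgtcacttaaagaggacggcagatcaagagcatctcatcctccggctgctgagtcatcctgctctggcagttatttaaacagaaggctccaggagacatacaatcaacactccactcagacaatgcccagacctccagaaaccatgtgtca
MIR31HG: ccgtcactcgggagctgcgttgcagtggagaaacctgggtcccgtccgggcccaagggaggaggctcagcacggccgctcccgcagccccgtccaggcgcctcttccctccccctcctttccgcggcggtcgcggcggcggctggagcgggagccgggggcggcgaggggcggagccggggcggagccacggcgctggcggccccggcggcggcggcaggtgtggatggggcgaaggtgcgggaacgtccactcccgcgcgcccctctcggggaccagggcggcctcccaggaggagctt
MALAT1: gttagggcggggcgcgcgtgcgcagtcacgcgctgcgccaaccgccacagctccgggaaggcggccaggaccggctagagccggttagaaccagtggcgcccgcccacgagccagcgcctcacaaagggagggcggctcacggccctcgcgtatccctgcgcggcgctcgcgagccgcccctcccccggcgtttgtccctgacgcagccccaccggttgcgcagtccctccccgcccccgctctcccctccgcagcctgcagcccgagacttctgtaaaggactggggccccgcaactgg

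In the MIATNB window 3 AGGAAG and 2 CCGGAAG matches were found, the nearest with its middle 14.5 bp from the summit, under a peak of fold 89.8. The LOC105376156 window held 2 AGGAAG matches, the nearest 15.5 bp from the summit, under a peak of fold 105. In LINC01152 and in NORAD a CCGGAAG match lay 4.0 bp from the summit, and the folds there were 89.6 and 28.7. The LUCAT1 window had 1 AGGAAG match, 30.5 bp from the summit, and also 1 TGANTCA match, the letters of the AP-1 site, under a peak of fold 6.93. MIR31HG, with fold 32.0, and MALAT1, with fold 5.10, held neither ETS word in the printed window. Both of those windows were rich in G and C (77.7% and 73.7%) and held 4 and 5 matches to GGGCGG, the letters of the GC box bound by Sp factors. A match is a description of the letters and not of a binding site.

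The strength of a peak is given as its fold enrichment, which the peak caller wrote as the immunoprecipitate pileup at the summit over the control level, each with a pseudocount of 1. The median fold at stand-alone lncRNA ends was 9.51, with quartiles of 5.69 and 19.2 and a range of 2.57 to 236. Fold enrichment reached 10 at 890 of the 1860 peaks, or 47.8% (45.6% to 50.1%), and over all peaks the share was 48.5%. A fold of 50 or more was seen at 101 of them (5.43%, 4.49% to 6.55%), against 6.06% of all peaks. Up to that strength the peaks at stand-alone lncRNA ends lay at the level of the whole list. A fold of 100 or more was rarer, with 7 peaks (0.376%, 0.182% to 0.775%) against 0.932% of all peaks (0.855% to 1.02%).

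Width was also close to that of the whole list. The median width was 541.5 bp, with quartiles of 361 and 856 bp, against 519 bp over all peaks. Peaks of 2 kb or more numbered 36 (1.94%), where the whole list had 2.74%. The pileup at the summit, that is, the number of overlapping fragments in the immunoprecipitate, was 26 in the median of both sets and reached 579 at lncRNA ends. The control level was 1.69 in the median and at the lowest value of the list, 1.28, for 28.7% of these peaks, close to the 29.0% of the whole list.

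Peaks within 1 kb of a protein-coding end were stronger and broader. Their median fold was 15.3 (n = 11183), their median width 952 bp and their median pileup 46, and 66.2% of them had a fold of 10 or more (65.3% to 67.0%). The peaks away from both kinds of gene ends stood on the other side, with a median fold of 8.42 (n = 34234), a median width of 459 bp and a share of 43.4% with a fold of 10 or more (42.8% to 43.9%). The intervals of these 3 shares did not overlap, so at a fold of 10 the stand-alone lncRNA ends lay between coding ends and the remaining genome by more than counting error. At a fold of 5 or more, the interval of lncRNA ends (79.1% to 82.7%) overlapped that of peaks away from gene ends (79.6% to 80.4%). At a fold of 20 or more, these intervals overlapped too (21.7% to 25.5% against 21.4% to 22.3%). Coding ends were above both sets at these cutoffs, with 89.4% and 38.8%. The order seen at a fold of 10 did not hold for the strongest peaks. A fold of 50 or more was seen in 6.58% of coding-end peaks and 6.21% of the peaks away from gene ends (5.96% to 6.47%), both nominally above lncRNA ends. A fold of 100 or more was seen in 0.340% at coding ends (0.248% to 0.466%) and in 1.19% away from gene ends (1.08% to 1.31%), the latter above lncRNA ends by more than counting error. Where an lncRNA end and a coding end shared the same kilobase, the median fold was 17.4 and the median width 1088 bp (n = 2041). Stand-alone ends of pseudogenes had a median fold of 9.20 and a width of 504 bp (n = 557), and 46.0% of them had a fold of 10 or more (41.9% to 50.1%), an interval that overlapped that of the lncRNA ends. Peaks of 1 library are not replicates, and these intervals cover counting error only.

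**Figure D1:**
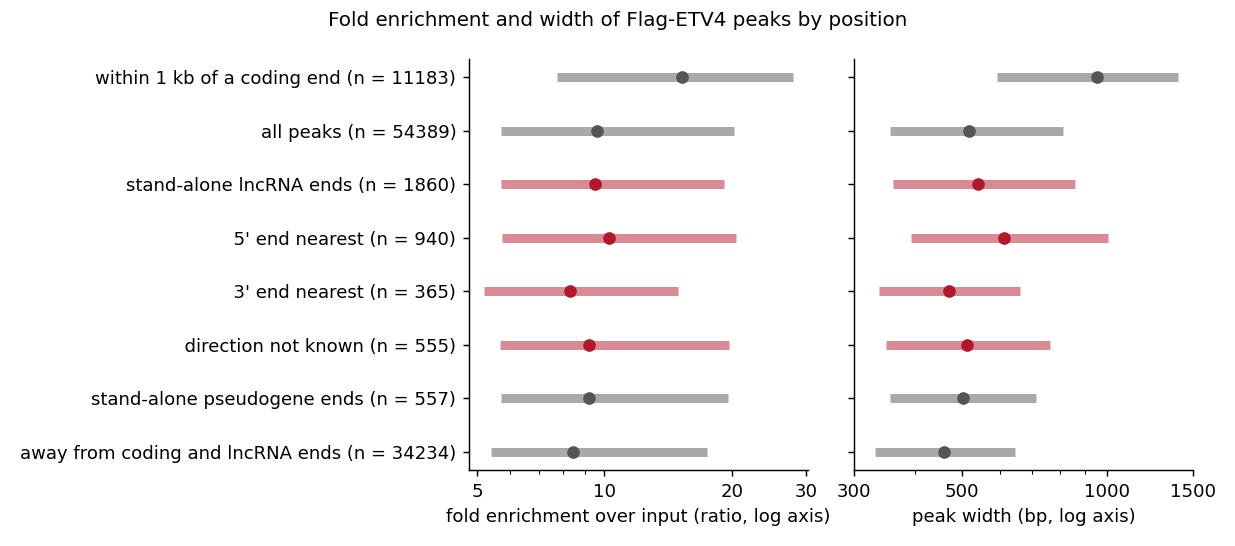
Median (point) and quartiles (bar) of the fold enrichment over input (left, ratio, log axis) and of the peak width (right, bp, log axis) for peaks grouped by position, with stand-alone lncRNA ends and their subsets in red and comparison sets in grey. Stand-alone lncRNA ends (median fold 9.51, width 541.5 bp) lie beside all peaks and below coding ends (15.3 and 952 bp), and within them the 5′ ends lie above the 3′ ends.

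With distance from the nearest coding end, the share of peaks with a fold of 10 or more fell in every successive bin. It was 53.1%, 51.6%, 47.5%, 44.9%, 44.7%, 41.9% and 32.1% over the bins named next, with overlapping intervals between neighbouring bins. The median fold fell less evenly. It was 10.4 at 5 to 10 kb (n = 286) and 10.7 at 10 to 20 kb (n = 364) and then 9.30 at 20 to 50 kb (n = 552) and 8.56 at 50 to 100 kb (n = 316). It was 8.94 at 100 to 200 kb (n = 197) and 8.76 at 200 to 500 kb (n = 117), where 9.40% had a fold of 50 or more (5.33% to 16.1%), the highest share of any distance bin. Beyond 500 kb the median was 6.73, from 28 peaks, of which 9 reached a fold of 10 (32.1%, 17.9% to 50.7%), an interval that overlaps that of the 5 to 10 kb peaks (53.1%, 47.4% to 58.9%). At the limits themselves, the peak just inside 1 kb of an lncRNA end, at 1000 bp, had a fold of 4.61 and the first outside, at 1001 bp, a fold of 42.0. The nearest to a coding end among those kept, at 5005 bp, had a fold of 6.57, and the last left out, at 4998 bp, had 25.4.

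Stand-alone refers to gene ends only, and many of these summits still lay within a protein-coding gene. That was the case for 616 peaks (33.1%), beside 51.7% of all peaks and 45.4% of the peaks away from both kinds of gene ends. Of all stand-alone lncRNA ends, 27.0% (7750 of 28750) lie inside a coding gene. The median fold was 10.2 inside and 9.20 outside coding genes (n = 1244), and the share with a fold of 10 or more was 51.1% (47.2% to 55.1%) against 46.2% (43.5% to 49.0%), with overlapping intervals. Broad peaks differed more, since 24 of the 36 peaks of 2 kb or more were inside a coding gene. A summit inside a coding gene cannot be assigned to the lncRNA end rather than to the coding gene's body.

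The direction of the nearest lncRNA gene was known for 1305 of the 1860 peaks (70.2%), taken from the promoter table, which is under the 80% needed to describe all of them. The split by 5′ and 3′ end is therefore void as a statement on the whole set and holds for these 1305. The 5′ end was nearest for 940 and the 3′ end for 365. At 5′ ends the median fold was 10.3, the width 610.5 bp and the pileup 29, and 51.5% had a fold of 10 or more (48.3% to 54.7%). At 3′ ends the median fold was 8.32, the width 470 bp and the pileup 22, and 40.5% reached a fold of 10 (35.6% to 45.7%). The intervals of the shares did not overlap. The 555 peaks of unknown direction fell between them, with a median fold of 9.20 and a width of 513 bp.

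Summits gathered at 5′ ends and thinned out at 3′ ends. Within 100 bp of the end lay 211 of the 940 summits at 5′ ends, 22.4% (19.9% to 25.2%), in a stretch that makes up 10.04% of the window. At 3′ ends it was 14 of 365, 3.84% (2.298% to 6.33%). The 100 bp bins on either side of the 5′ end held 104 summits each, the most of any bin, and the corresponding bins at the 3′ end held 7 each. The 5′ summits were split almost evenly, with 453 of 940 upstream of the start (48.2%, 45.01% to 51.4%). Strength changed less than number, as the median fold of 5′ summits within 100 bp was 11.4 and that of the remainder 10.1. In 43 cases 5′ ends of lncRNA genes on both strands lay within 1 kb of the same summit.

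**Figure D2:**
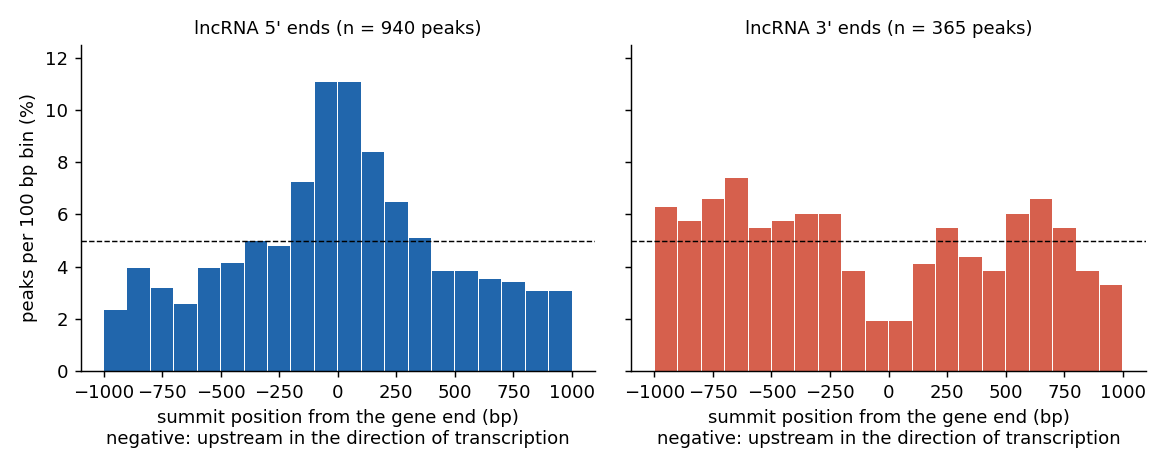
Share of peaks (percent, 100 bp bins) by the distance of the summit from the nearest lncRNA 5′ end (left, n = 940) or 3′ end (right, n = 365), in bp, with negative values upstream in the direction of transcription and a dashed line at the share an even spread would give. The bins at the 5′ end hold 104 summits each and are the highest, and the bins at the 3′ end hold 7 each and are the lowest.

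Counted by gene, 1780 of the 15943 lncRNA genes with at least 1 stand-alone end had a summit within 1 kb of such an end, or 11.2% (10.7% to 11.7%). The other 12 genes with such a peak had no end of their own more than 5 kb from a coding end. A peak of fold 10 or more was found for 904 genes (5.67%) and one of fold 20 or more for 464 (2.91%). Among ends of known direction, 954 of 8187 stand-alone 5′ ends (11.7%, 10.98% to 12.4%) and 387 of 9200 stand-alone 3′ ends (4.21%, 3.82% to 4.64%) had a summit within 1 kb. For protein-coding genes of known direction the shares were 57.8% at 5′ ends and 6.86% at 3′ ends (15825 ends of each kind). Those ends were not filtered by distance from other genes, so a summit shared with a neighbouring gene counts there. Stand-alone pseudogenes, counted per gene with a summit at either end, had a share of 4.06% (3.75% to 4.38%). Summits that were also near an lncRNA end were not left out of it. The share was below the 11.2% of lncRNA genes, also counted per gene, and is not comparable with the shares of 3′ ends, which are per end.

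The share varied with the kind of lncRNA record. Genes with a curated transcript record had a peak in 14.6% of cases (800 of 5483, 13.7% to 15.5%) and genes with predicted transcripts only in 9.37% (980 of 10460, 8.83% to 9.94%). By symbol, the share was 13.9% for LINC genes, the named intergenic lncRNAs (310 of 2226), and 9.66% for LOC genes, which have no name yet (1074 of 11121). Antisense genes, named after the coding gene on the opposite strand, had a share of 15.8% (236 of 1492), and divergent transcripts, which start back to back with a coding gene, 7.36% (24 of 326, 4.997% to 10.7%). The 5 kb rule leaves out summits near a coding end, where divergent transcripts start, so their share is not comparable with the other classes. Host genes of microRNAs and small nucleolar RNAs had the highest share, 28.4% (25 of 88, 20.04% to 38.6%). Of all 1860 peaks, 60.4% had a LOC gene as the nearest.

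The median fold of a class ran from 4.92 to 12.7. It was 8.76 at LINC genes (n = 311 peaks), 9.09 at LOC genes (n = 1123) and 10.3 at small RNA hosts (n = 26). Antisense genes had a median of 11.9 (n = 255), and 57.6% of their peaks reached a fold of 10 (51.5% to 63.6%), above the 48.5% of the whole list. Of those 255 summits, 78.8% were inside a coding gene. Intronic lncRNA genes had the lowest median, 4.92, from 9 peaks. By length, genes of 1 to 5 kb had a peak most often (14.5%, 13.4% to 15.6%), and the median length was 8342.5 bp with a peak and 11048 bp without. Among chromosomes, the share ran from 6.70% on chromosome 13 (39 of 582 genes) to 16.9% on chromosome 17 (95 of 561), chromosome Y left aside.

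**Figure D3:**
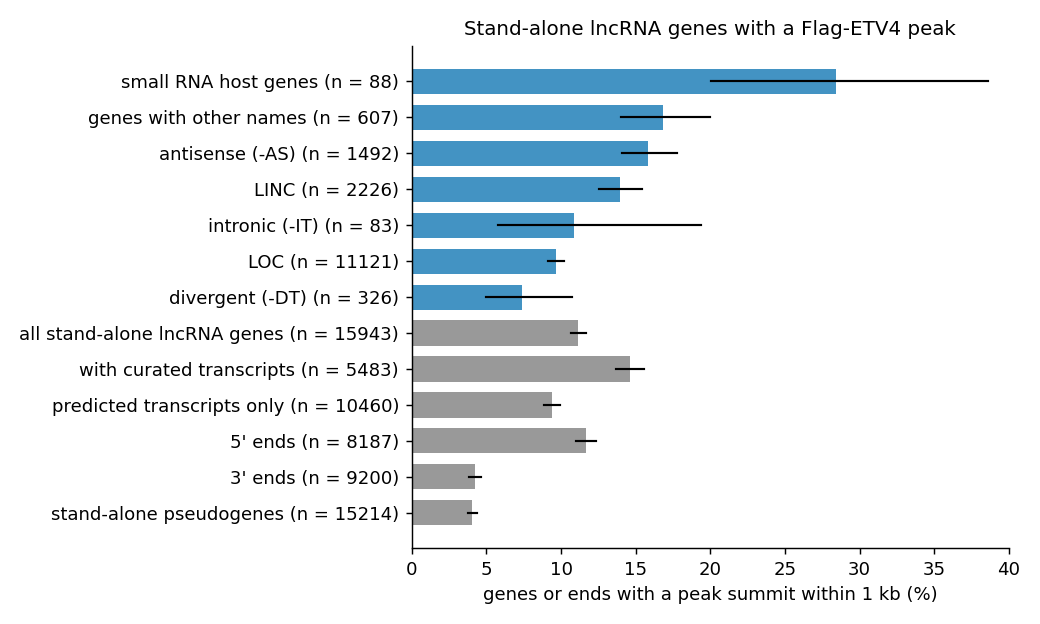
Share of stand-alone lncRNA genes, or of ends where stated, with a peak summit within 1 kb (percent, from 0), by symbol class (blue) and by record type, end and comparison group (grey), with Wilson 95% intervals as lines. Small RNA host genes reach 28.4% against 11.2% of all stand-alone lncRNA genes and 14.6% of those with curated transcripts. The lowest bars are 3′ ends (4.21%, counted per end) and pseudogenes (4.06%, counted per gene at either end).

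The strongest peak at a stand-alone lncRNA end was at LINC00659 on chromosome 20, at chr20:62776562-62777655 (hg38), with its summit 320 bp upstream of the 5′ end. It had a fold of 236, and 579 fragments (exact Poisson 95% interval 533 to 628) stood over a control level of 1.46. The nearest coding end was 14.4 kb away, at NTSR1, the neurotensin receptor gene. Second was a peak 210 bp beyond the 3′ end of LINC01627 (chr9:37383851-37384654), with a fold of 139 and a pileup of 412 over 1.97. Of the 10 highest peaks, these 2 were at LINC genes and the other 8 were at LOC genes. Over all 1860 peaks, a LINC gene was nearest for 16.7% and a LOC gene for 60.4%.

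LOC105372170 on chromosome 18 followed with a fold of 129, at 627 bp from an end, 221 kb from the cadherin gene CDH7. At LOC105375423 on chromosome 7, the summit was 85 bp inside the 5′ end, with a fold of 116 and a pileup of 325. LOC105373601 on chromosome 2 had a fold of 109 at its 3′ end, over a control level at the floor of 1.28. Order by fold was not order by pileup, since LOC105373601 had 248 fragments (218 to 281), fewer than several peaks of lower fold.

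LOC105376156, whose promoter is printed above, had a fold of 105 and a pileup of 388 (350 to 429), 16.1 kb from PTCH1, the receptor for Hedgehog ligands. A peak shared by LOC105377720 and LOC105377721 had a fold of 103, 37.8 kb from the growth factor gene FGF18. LOC124906206 (fold 99.8) was 590 kb from ZIC1, LOC124909475 (99.8) lay inside XXYLT1, and LOC107985807 (95.03) was 68.7 kb from LAPTM4A. Distance is the only link between these peaks and the coding genes in the data. Of the 10, 9 were outside coding genes, 4 were nearest to a 5′ end, 3 to a 3′ end and 3 to an end of unknown direction.

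By pileup, 2 further peaks ranked among the 5 highest. The peak of BCL2L1-AS1 and LOC124904883, chr20:31674669-31675661, held 574 fragments (528 to 623), close to LINC00659, but over a control level of 5.06, which gave a fold of 94.8. It is inside BCL2L1, which encodes the apoptosis inhibitor Bcl-xL. LINC01152, with a pileup of 347 and a fold of 89.6, had its summit 32 bp upstream of the 5′ end, 90.4 kb from SOX9, a developmental transcription factor gene.

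The widest peaks were not the strongest. LOC124904237 had a peak of 6324 bp at chr18:3447724-3454047, with a fold of 56.6, inside TGIF1, a gene for a transcriptional repressor in TGF-β signalling. LOC107985687 on chromosome X had 5538 bp and a fold of 32.8, inside the corepressor gene BCOR. RENO1 on chromosome 17 had 3950 bp and a fold of 75.3, outside coding genes and 49.6 kb from BAHCC1. IQCJ-SCHIP1-AS1 (3943 bp, fold 44.9) and LOC112267936 (3752 bp, fold 26.5) were inside IQCJ-SCHIP1 and LARP1. Thus 4 of the 5 widest lay inside a coding gene, and 4 of the 5 were nearest to a 5′ end.

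Several lncRNA genes carried more than 1 peak. LINC03146 on chromosome 17 had 3, with folds of 76.6, 14.5 and 10.1, the first shared with LOC124903958. LOC105371912, with its nearest peak 9.79 kb from SOCS3, the gene of a feedback inhibitor of cytokine signalling, had folds of 37.5, 48.9 and 3.26. At LINC01460 the folds were 31.1, 13.4 and 6.70, and LOC105374378 shared the first and the last. The 3 pileups at LINC03146, 179, 61 and 26, did not overlap in their intervals, and at the other genes only the weakest peak lay clear of the rest.

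The remaining 6 genes with 3 peaks had weaker ones. The folds were 13.7, 11.3 and 3.17 at LOC105372621, 10.9, 9.20 and 5.95 at LOC105369377 and 9.02, 6.58 and 2.97 at DLGAP1-AS1. At LOC124904069 they were 8.26, 6.13 and 3.503, at LOC101927608, which shared its stronger pair with LOC283387, they were 7.501, 6.22 and 4.08, and at LOC102724463 they were 4.48, 4.01 and 3.28. Clusters of peaks at a gene were thus found at both high and low fold.

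Both ends lay within 1 kb of such a peak in 158 lncRNA genes, and in 86 of them the strongest peak was a different one at each end. Where the direction was known, the 5′ end had the higher fold in 38 of 70. PPM1F-AS1, antisense to a phosphatase gene, had a fold of 38.3 at its 5′ end and 68.0 at its 3′ end, with pileups of 102 and 165. LOC105371912, described above, had the same order. GNA15-DT had 35.4 at the 5′ end and 31.8 at the 3′ end, and SLC25A30-AS1 had 37.6 and 25.9. GASAL1 on chromosome 8, of unknown direction, had 30.1 and 28.9, although its control levels, 6.41 and 4.05, were high for this set. These 5 were the pairs with the highest weaker fold, and neither end was regularly the stronger.

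Well known lncRNAs were looked up in a list of 60 genes linked to cancer or known as small RNA hosts, chosen with earlier results of these data known. Of these, 57 were lncRNA genes of the table, 10 had both ends within 5 kb of a coding end, and 47 were stand-alone. A peak was found for 16 of the 47 (34.0%, 22.2% to 48.3%), where 11.2% of all stand-alone lncRNA genes had 1. Of the 16, 8 had a fold of 10 or more, where 50.8% of all stand-alone lncRNA genes with a peak did, and their median best fold was 10.4, against 10.1 for all 1792 genes with a peak. As the list was chosen with results known, the larger share is a description of these genes and not independent evidence.

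NORAD, an abundant cytoplasmic lncRNA that binds Pumilio proteins, had the highest pileup of the list. It held 144 fragments (121 to 170) over a control level of 4.05, a fold of 28.7, with the summit 47 bp upstream of the 5′ end. PVT1, the neighbour of MYC, had 114 fragments (94.0 to 137) and a fold of 30.8, 176 bp from an end and 51.4 kb from MYC. NEAT1, the scaffold of paraspeckles, had 69 fragments (53.7 to 87.3), a fold of 20.8 and a broad peak of 2274 bp. The pileups of NORAD and PVT1 overlapped in their intervals, and that of NEAT1 lay below both.

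LINC01116 and LINC01117, which start back to back, shared a peak of fold 25.3 with 67 fragments. DANCR, a lncRNA known for holding back differentiation, had a fold of 20.4 with 47 fragments. SNHG5, a snoRNA host, had 10.8 with 33. BANCR, first described downstream of mutant BRAF, had 36 fragments and a fold of 9.999 in a peak shared with LOC124902176.

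MIR31HG, with the highest fold of the list, 32.0, and MIR17HG, with 14.0, are described with the small RNA hosts below. The remaining genes of the list had folds under 10, down to 3.18. LUCAT1, named for its link to lung cancer, had 27 fragments (17.8 to 39.3) and a fold of 6.93. MALAT1, a nuclear speckle RNA named for metastasis of lung adenocarcinoma, had a peak at each end, with 13 fragments (6.92 to 22.2) and a fold of 5.10 at the 5′ end and 11 (5.49 to 19.7) and 5.22 at the 3′ end. The intervals of these 2 peaks overlapped almost fully. LINC00467 (7.01, shared with LOC124904504, whose 5′ end was 11 bp away), LINC00460 (6.13), AFAP1-AS1 (5.47), LINC00662 (3.9996) and SNHG15 (3.18) made up the rest. The LINC00662 peak, shared with LINC02987, had 30 fragments, more than LUCAT1, over a control level of 6.75, second only to the 8.10 of RDH10-AS1 in this set.

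No peak was listed within 1 kb of any end for 22 stand-alone genes of the list, among them H19 and MEG3, the imprinted lncRNAs, CCAT1, HULC, CYTOR, LINC00511, MIR155HG, DLEU2, KCNQ1OT1, SOX2-OT and MIAT. The other 9, such as CRNDE, HOTTIP and ZFAS1, had a peak only at an end near a coding gene. A gene without a listed peak may still have had signal under the caller's threshold, which cannot be seen in a peak list.

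**Figure D4:**
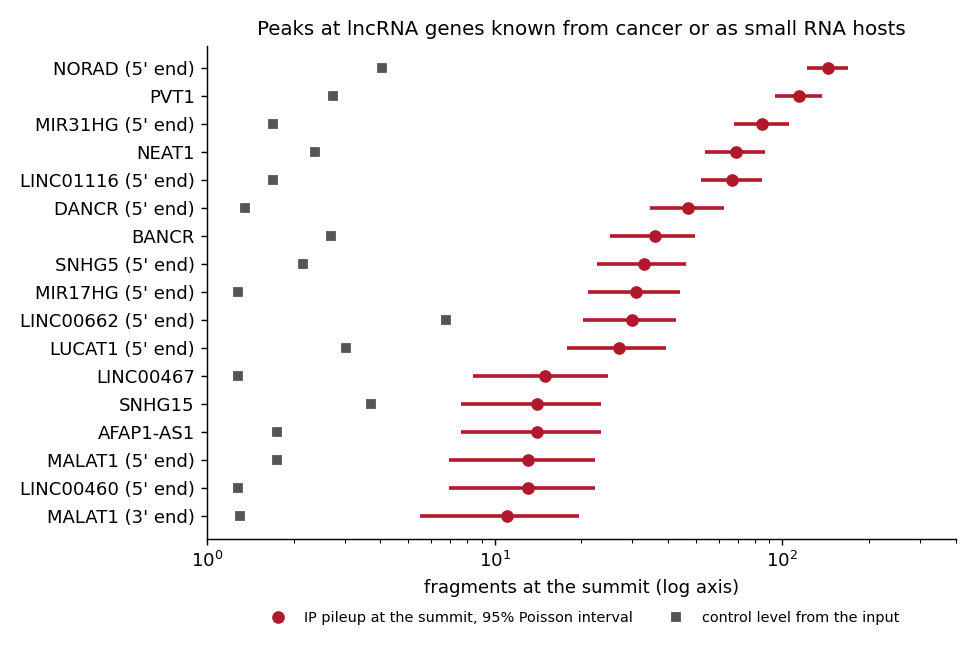
Immunoprecipitate pileup at the summit (red points, fragments, log axis) with its exact Poisson 95% interval, and the control level recovered from the same peak (grey squares), for the 17 peaks at the 16 well known lncRNA genes, with the nearest end where the direction is known. Pileups run from 144 at NORAD to 11 at the MALAT1 3′ end, and LINC00662 has the highest control level, 6.75.

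Host genes of small RNAs are of interest because 1 promoter can serve both the lncRNA and the RNAs cut from it. Hosts were taken by symbol, as MIR names ending in HG and SNHG names, so hosts with other names, such as DANCR, are not in these shares. A peak was found for 11.2% of all stand-alone lncRNA genes and for 14.6% of those with a curated transcript record. Among stand-alone hosts, 19 of 73 microRNA hosts (26.0%, 17.3% to 37.1%) and 6 of 15 snoRNA hosts (Wilson interval 19.8% to 64.3%) had a peak. Their median best folds of 10.99 and 10.3 were close to the 10.1 of all genes with a peak. A fold of 10 or more was reached by 11 of the 19 microRNA hosts and 4 of the 6 snoRNA hosts, beside the 50.8% of all stand-alone genes with a peak. By position, lncRNA genes with a peak held 40 microRNA hairpins in 26 genes. The same count for lncRNA genes without a peak is not given here, so this number shows no excess. The mature microRNAs of hosts with a strong or well known peak are printed below from RefSeq, 5′ to 3′, with the seed, bases 2 to 8, in capitals. They were chosen after the values of their hosts had been seen.
hsa-miR-31-5p: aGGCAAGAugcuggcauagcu
hsa-let-7a-5p: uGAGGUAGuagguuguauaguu
hsa-let-7f-5p: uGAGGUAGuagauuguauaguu
hsa-let-7d-5p: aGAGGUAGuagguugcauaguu
hsa-miR-23a-3p: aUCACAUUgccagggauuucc
hsa-miR-27a-3p: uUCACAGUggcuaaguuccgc
hsa-miR-193b-3p: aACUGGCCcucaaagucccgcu
hsa-miR-34a-5p: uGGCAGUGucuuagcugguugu
hsa-miR-17-5p: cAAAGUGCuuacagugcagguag
hsa-miR-20a-5p: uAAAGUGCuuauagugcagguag
hsa-miR-18a-5p: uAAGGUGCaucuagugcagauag

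The let-7 family members let-7a, let-7f and let-7d share the seed GAGGUAG and lie together in MIRLET7A1HG, whose peak had 128 fragments (107 to 152) and a fold of 31.9, with the summit 459 bp inside the 5′ end. MIR31HG, host of miR-31, had 85 fragments (67.9 to 105) and a fold of 32.0, 99 bp upstream of its start. The folds of these 2 hosts were nearly equal although the pileups differed, because the control levels were 3.04 and 1.69. MIR7-3HG had a fold of 25.3 at its 5′ end and a weaker peak of 5.13 at its 3′ end.

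MIR23AHG, host of miR-23a, miR-27a and miR-24, had a fold of 24.6 and a width of 2051 bp. MIR193BHG, host of miR-193b and miR-365a, had 21.3 and 1940 bp. MIR17HG, host of the miR-17 to miR-92a cluster in which miR-17 and miR-20a share the seed AAAGUGC, had 31 fragments (21.1 to 44.0), a fold of 14.0 and a width of 2103 bp. The peaks of these 3 hosts were among the broad ones, each above the upper quartile of 856 bp.

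MIR34AHG, host of the p53 target miR-34a, had 32 fragments and a fold of 14.4, 98 bp inside its start, in a peak shared with LNCTAM34A, whose 5′ end was closer, at 36 bp. SNHG26 had the highest fold of the snoRNA hosts, 14.0, with its summit 30 bp upstream of the 5′ end. At the low end MIR130AHG had 10 fragments and a fold of 2.72, and MIR1-1HG, host of the muscle microRNA miR-1, had 10 fragments and a fold of 4.82 in a peak closer to the start of CRMA. Control levels were 3.04 and 1.28 at these last genes, so equal pileups gave unequal folds.

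Promoter windows of the kind printed above were then compared across genes. Stand-alone lncRNA starts had 9254 windows of 300 bases, from 8246 genes. Of these, 282 held the summit of a peak, 525 overlapped a peak whose summit was elsewhere, and 8447 had no peak. The 282 windows came from 269 genes. Windows can overlap, and the intervals below take each window as independent. The windows differed in base composition, with a median G and C content of 61.5% in those with a summit, 60.0% in those touched by a peak and 45.7% in those without. The ratio of CG dinucleotides to the number expected from the C and G content was 0.646, 0.592 and 0.214. The letters below were searched on both strands, and the words AGGAAG and CCGGAAG cannot share the same GGAA core.

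CCGGAAG was found in 22.3% of windows with a summit (63 of 282, 17.9% to 27.6%), 7.24% of windows touched by a peak and 2.71% of windows without (2.39% to 3.08%). AGGAAG was found in 54.96% (49.1% to 60.7%), 37.7% and 34.2%. Either word was present in 68.1% of windows with a summit and in 35.9% of those without. Over all 34943 promoters of the table, coding genes included, the shares were 10.2% for CCGGAAG and 33.7% for AGGAAG. Both ETS words were therefore more frequent at summits than in the other stand-alone lncRNA promoters, by more than counting error with each window taken as independent.

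Base composition moves with these shares, so they were also read within bands of G and C content. In windows of 45% to 55%, AGGAAG was present in 71.2% with a summit (47 of 66) and 40.2% without a peak. From 55% to 65%, it was 71.3% (57 of 80) and 38.3%, and CCGGAAG was 26.3% and 7.42%. At 65% and above, AGGAAG was 30.4% (22.8% to 39.4%) and 25.4% (21.6% to 29.6%), with overlapping intervals, and CCGGAAG was 28.7% (21.2% to 37.5%) and 9.05% (6.74% to 12.0%). The difference in CCGGAAG was thus seen in each band from 45% upward but not below it. That in AGGAAG was not detectable in the richest band.

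Other letters showed a different order. TGANTCA, the AP-1 letters, was found in 19.1% of windows with a summit (15.0% to 24.1%) and 12.1% without a peak (11.5% to 12.9%). In the band of 45% to 55% G and C it was 43.9% (29 of 66) against 13.6%, and at 65% and above 1.74% (2 of 115) against 3.09%. GGGCGG was found in 141 of the 282 windows with a summit, 46.7% of those touched by a peak and 11.4% of the others. Within bands the contrast was smaller, with 41.3% (31.1% to 52.2%) against 30.8% (28.4% to 33.4%) at 55% to 65% G and C, where the intervals overlapped, and 86.1% (78.6% to 91.3%) against 66.9% (62.4% to 71.1%) at 65% and above. Over all bands, GGGCGG was about as frequent in windows with a peak summit elsewhere as in those with a summit.

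Strong and weak peaks carried different letters. In the 167 windows whose peak had a fold of 10 or more, CCGGAAG was present in 29.9% (23.5% to 37.3%), and in the 115 with a lower fold in 11.3% (6.73% to 18.4%). TGANTCA ran the other way, with 10.8% (6.93% to 16.4%) against 31.3% (23.5% to 40.3%). For AGGAAG the shares were 50.9% and 60.9%, with overlapping intervals, and for GGGCGG 61.1% and 33.9%. The median fold was 16.0 with CCGGAAG (n = 63) and 11.4 without (n = 219), and 7.59 with TGANTCA (n = 54) and 13.6 without (n = 228). Base composition differs between these windows as well, and its part in the order was not tested.

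Distances from match to summit are bounded by the window, which had to hold the summit, so they describe the matches and show no preference for it. The median distance from the middle of the nearest match to the summit was 32.0 bp for CCGGAAG, 40.5 bp for AGGAAG, 37.5 bp for GGGCGG and 44.5 bp for TGANTCA. A match within 50 bp was found in 61.9% of windows with CCGGAAG (39 of 63, 49.6% to 72.9%) and in 57.4% of those with TGANTCA (31 of 54, 44.2% to 69.7%). The 4 sets of letters did not differ in this respect beyond counting error.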

How the data were processed

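ChIP-seq peaks were analysed from 1 immunoprecipitate, called against 1 input, which had no file of its own and was not analysed here. Depth is given per peak as the pileup, and no comparison of conditions was possible.

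In the peak list that the authors deposited, each summit has a ratio (fold enrichment over input) and 2 −log10 values, for p and q. Its display score, also as deposited by the authors, was not used. The submitters' processing notes name Bowtie2 2.4.1, SAMtools, MACS2 2.2.7.1, deepTools 3.5.0 and the hg38/GRCh38 build. The study's text names a fold above 2 as the limit for peaks. Other parameters, and how duplicate reads were handled, are not given in the sources used here. Duplicates and the local control window both enter the fold.

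Genes, promoter windows and microRNAs came from RefSeq tables on GRCh38.p14. Gene direction was taken from the promoter table, which has it for 62.6% of lncRNA genes. The strand of its windows was checked on 2700 overlapping opposite-strand pairs, all reverse complements of each other. No genome was used, so peak sequence outside these windows was not read. Pileup and control level were solved from the fold and −log10 p by a Poisson calculation (pseudocount 1), with a largest residual of 0.00785 in −log10 p, and the solution was tested on simulated data. Shares have Wilson and pileups exact Poisson 95% intervals, which cover counting error only, since PCR reads without molecular identifiers are not independent molecules. Calculations used scipy 1.17.1, numpy 2.4.6 and pandas 2.3.3 under Python 3.11.15, and plots matplotlib 3.10.9.

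Genes named by rule were those at the 10 members with the highest fold, the 5 widest and the 5 with the highest pileup, genes with 3 or more members, 5 genes with members at both ends by the weaker fold, and members of the list of 60 known lncRNAs. Others are said to be chosen after their values were seen. The members and lists were chosen with earlier results of these data known. The alternatives changed the distances, thresholds, gene sets and the point measured from.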

Additional observations from a re-analysis of the deposited data

How the results depend on the processing

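With 1 library, no result has replicate error, and a peak list shows nothing below the caller's threshold. No paired analysis was possible because there were no replicates. The main values were 1860 peaks, 1792 genes, a median fold of 9.51, a median width of 541.5 bp, 47.8% of peaks with a fold of 10 or more and 11.2% of stand-alone genes with a peak. Each was recomputed under 11 alternatives. A count was taken as moved when it changed by more than 1.5 times, and a median or share when it left the main value's own 95% interval (8.96 to 10.05 for the fold and 524 to 559 bp for the width, from order statistics). The number of peaks moved in 4, the number of genes in 3, the median fold in 4, the width in 6, the share of strong peaks in 4 and the share of genes in 10.

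A window of 0.5 kb gave 1121 peaks at 1129 genes, a width of 563 bp and a share of genes of 7.05%, and one of 2 kb gave 2910 peaks at 2553 genes, 517 bp and 15.9%. With 5′ ends only there were 968 peaks at 966 genes, with a fold of 10.2, a width of 610.5 bp and 51.1% strong peaks. Without LOC genes there were 751 peaks at 710 genes, with 10.3, 601 bp, 51.8% and a share of genes of 14.6%. Peaks of fold 5 or more gave a median of 11.9, 625 bp, 59.1% and 9.28%, and those with a −log10 q of 5 or more gave 11.2, 603 bp, 55.9% and 9.75%, as both remove weak peaks. The share of genes was 10.7% with 10 kb and 12.0% with 2 kb kept from coding ends. It was 10.6% with the ends of all genes other than lncRNA kept away and 12.6% with the peak interval in place of the summit. Without summits inside coding genes it was 7.66%. lncRNA genes with ends inside coding genes stayed in that denominator, so the share could only fall. Leaving out the summits inside coding genes kept 1244 peaks at 1224 genes, a fall of less than 1.5 times.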
